A study of Mus musculus with 16 samples.

Results

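The recipients' own CD4+ T cells, called ENDO cells, were compared between infarcted and sham-operated mice on 8 of the 16 arrays of the series. The arrays were chosen by title, 5 titled infarction and 3 titled sham, and the other 8 arrays hold transferred myosin-specific cells, called TCRM cells. All recipients were male BALB/c mice of 8 to 12 weeks that carried the Thy1.2 marker, and every one of them, sham animals included, had received Thy1.1 CD4+ T cells with a transgenic receptor for cardiac myosin 1 day before surgery. Infarction was induced by tying off the left anterior descending coronary artery, and the sham group had its chest opened without ligation. Both groups had buprenorphine for pain. On day 7 the mediastinal lymph nodes were taken, and cells positive for CD4 and the T cell receptor beta chain were sorted to a purity above 98%. No unoperated group and no recipient without transferred cells was analysed here, so both groups share surgery and transferred cells.

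The mediastinal lymph nodes drain the heart, and antigen released by dying heart muscle is presented there to CD4+ T cells. The endogenous population is polyclonal, so few of its cells are expected to recognise any given heart antigen, whereas the transferred cells share 1 receptor. An activated CD4+ T cell leaves quiescence, copies its DNA, builds ribosomes and membranes, and can acquire helper, regulatory or memory programmes with their own receptors and cytokines.

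The deposited values are log2 signal, so a difference of 1 is a doubling or a halving. Of 41345 probe sets, each standing for a transcript, 28941 had a mean log2 signal of at least 4.88 over the 8 arrays and were tested with limma, and p-values were adjusted over all 28941 by the Benjamini-Hochberg method. Gene symbols come from the authors' deposited tables of selected genes, so 237 tested probe sets could be given a name and most transcripts could not.

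The 8 arrays had similar median log2 signals, 5.61 to 5.79, but differed in width. The interquartile range, lower to upper quartile, was 2.46, 2.35, 2.35, 2.21 and 2.05 on infarction arrays 1 to 5. On sham arrays 1 to 3 it was 2.23, 2.31 and 2.08, so infarction array 1 was the widest and infarction array 5 the narrowest. Whether this width bears on the distances between arrays was not tested. Averaged over the other 7 arrays, the Pearson correlation was 0.883 to 0.926 for 7 arrays and 0.807 for infarction array 5. That array lay at 109.9 on the first principal component, which held 46.3% of the variance, while sham array 3 lay at 44.2 and the remaining 6 arrays between -53.7 and 8.4. The source name of infarction array 5 says sham and its title says infarction. With the groups of the titles, all 274 averages recomputed for the authors' deposited table of ENDO cells matched within 0.01, and with the groups of the source names 8 did. The title was followed, and results are given with and without this array. The source name of TCRM infarction array 5 says sham too, and its title was followed as well. The match of averages is given here for ENDO cells only. Among 14 CD4 T cell markers only Trat1, a T cell receptor-associated adaptor, could be named. Its log2 signal was 9.02 to 9.56 on the other 7 arrays and 8.21 on infarction array 5, and the other 13 markers were not analysed here. The authors chose Trat1 as lower after infarction on the TCRM arrays. Infarction array 5 was also the lowest of its group for genes of other kinds, such as Cdkn2d and Dnajc9, though not for Nsmce2. Whether that array holds fewer T cells was not tested.

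**Figure D1:**
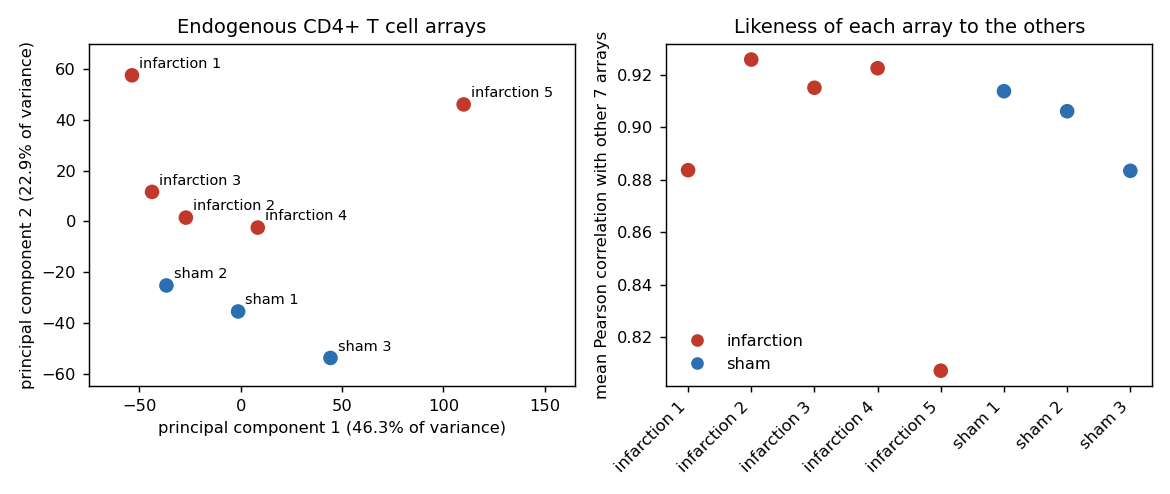
Left, the 8 ENDO arrays on the first principal components of the tested probe sets (axes in component units, with the share of variance). Right, the mean Pearson correlation of each array with the other 7. Infarction array 5 stands apart in both panels, at 109.9 on component 1 and with a correlation of 0.807.

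No transcript passed adjustment in the 8 arrays. At an adjusted p under 0.05 limma called 0 probe sets (0% of those tested), and the lowest adjusted p was 0.0874. At an unadjusted p under 0.05, 1141 were higher after infarction (3.94%) and 1166 were lower (4.03%). These 2307 were split almost evenly. Of the tested probe sets 50.3% had a higher mean after infarction, and the median difference was 0.0017. No transcript is therefore described as changed below.

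With the rule that heads the authors' tables, at least 2-fold and an unadjusted p under 0.05, 184 probe sets were higher (0.636%) and 423 lower (1.46%). Of these 607, 73 could be named, and 87 had values identical to another probe set, 81 of them among the lower ones. Lower outnumbered higher with all arrays, but the balance was not stable. It was 537 higher and 417 lower with the number in the titles as a replicate block, 480 and 102 with the groups of the source names, and 375 and 381 with array weights. Without infarction array 5 it went to 394 higher and 375 lower, and 505 of the 607 were among these 769. The lowest adjusted p was then 0.0845 with limma, while 4028 probe sets (13.9%) had an unadjusted p under 0.05, 2282 of them higher. Groups that did not overlap were counted separately: every infarction array exceeded every sham array for 858 probe sets (2.96%), and every sham array exceeded every infarction array for 1081 (3.74%).

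**Figure D2:**
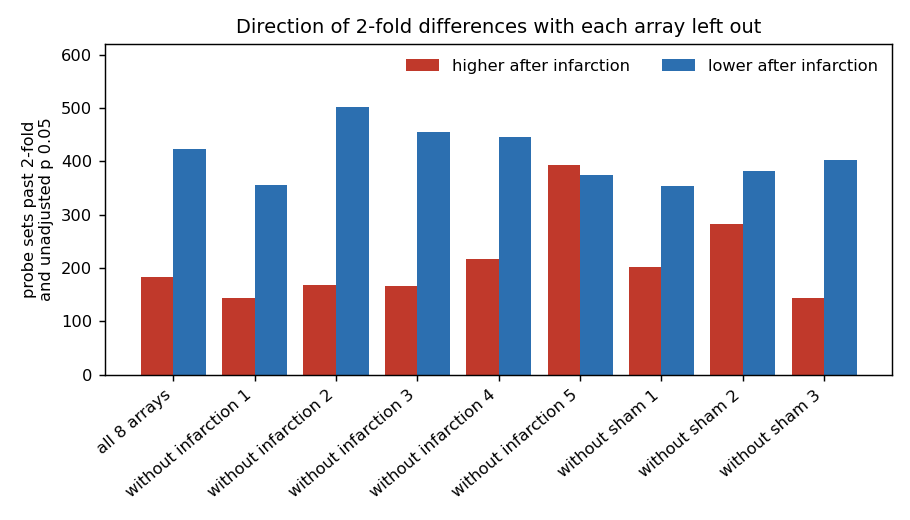
Bars give the number of probe sets past 2-fold and an unadjusted p of 0.05 (vertical axis), higher (red) or lower (blue) after infarction, with all 8 arrays and with each array left out in turn. Lower outnumber higher (423 against 184 with all arrays) in every setting but the one without infarction array 5, where 394 were higher and 375 lower.

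A fit of all 16 arrays, which takes 1 spread for both cell populations, called 300 probe sets for ENDO infarction against sham at an adjusted p under 0.05 (1.04%), 111 higher and 189 lower. The median residual SD was 0.277 for ENDO and 0.195 for TCRM arrays, so the shared spread is smaller than that of the ENDO arrays alone. With a weight per population 72 were called, all of them among the 300. Among the genes named below, 13 passed in the 16-array fit, and its adjusted p is given for them. With the weight per population only 4 of the 13 did, Cdkn2d, Dnajc9, Vps50 and Dcdc2b, and the others lost the call. The naming rule takes in every gene that passes the 16-array fit, gene models, clones and receptor segments excepted. All 13 are also from the authors' deposited table of ENDO cells, chosen for this contrast on these arrays. Their adjusted p in the 16-array fit are therefore a description and add no support.

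The named genes below fall in 2 sets. The first are those of the authors' deposited table of ENDO cells, which holds 274 probe sets, 38 higher and 236 lower. Of these 96 had 1 symbol, 82 of them were tested here, and 25 were higher and 57 lower. The authors chose them for this same contrast on these same arrays, so their directions are a description and support nothing. Over these 82 the median difference was -1.26, against 0.0017 over all tested probe sets. Most were gene models: of the 95 distinct symbols 63 were gene models or clones, 5 were antigen receptor segments and 27 were other genes.

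Apart from gene models, 2 of which were higher, the largest positive difference was that of Mir505, a microRNA gene on the X chromosome. A microRNA guides a silencing complex to messenger RNAs that pair with its seed, bases 2 to 8. The mature sequences are shown because the probe set cannot tell which arm of the hairpin, if either, was present as a mature RNA. Capitals mark the seed, and sequences and positions are from RefSeq on GRCm38.p6, minus strand.
mmu-miR-505-3p, chrX:60394416-60394437: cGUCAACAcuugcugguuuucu
mmu-miR-505-5p, chrX:60394451-60394473: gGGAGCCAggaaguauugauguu
The seed of the 3p arm was shared by 0 other of 1679 mature mouse names in that table, and that of the 5p arm by 1, mmu-miR-7662-3p.

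Mir505 measured log2 6.47, 6.46, 6.95, 6.28 and 5.17 on infarction arrays 1 to 5 and 4.27, 3.89 and 4.49 on sham arrays 1 to 3. The groups did not overlap, with every infarction value above the highest sham value, and infarction array 5 was the lowest of its group. The difference was 2.05 ± 0.36 (log2, SE), with a limma adjusted p of 0.192, and 2.32 without infarction array 5. The sham mean of 4.21 lay under the filter level of 4.88, so the size of the difference is uncertain. Of the other 3 named microRNA genes none passed the filter on low signal.

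Genes of the cell cycle and DNA replication did not share a direction. The list holds 48 genes, of which 3 could be named: Cdkn2d and Mcm2 were higher and Cks2 was lower. Cdkn2d encodes an inhibitor of the kinases that cyclin D activates, and so restrains entry into the cycle. It measured 8.63, 8.18, 8.14, 7.70 and 7.16 after infarction and 6.36, 6.64 and 6.42 after sham operation. The groups did not overlap, and the sham arrays lay close together. The difference was 1.49 ± 0.30 (log2, SE), or 2.81-fold, with an adjusted p of 0.253 in limma's 8-array fit and 0.00935 in the 16-array fit.

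Mcm2, a subunit of the helicase that unwinds DNA for replication, measured 7.39, 7.48, 7.30, 7.34 and 6.76 after infarction. On the sham arrays it measured 6.28, 6.85 and 6.32. Infarction array 5 fell between the sham arrays, below sham array 2, and the other 4 exceeded them, so the groups overlapped. The difference was 0.77 ± 0.21 (log2, SE), and 0.89 without infarction array 5, with limma adjusted p of 0.367 and 0.149.

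Cks2, a small subunit of cyclin-dependent kinase complexes, went the other way. It measured 4.55, 5.44, 5.58, 4.93 and 5.92 after infarction and 8.22, 7.45 and 7.20 after sham operation. The groups lay more than 1 log2 unit apart. The difference was -2.34 ± 0.35 (log2, SE), with a limma adjusted p of 0.191 in the 8-array fit and 0.00928 in the 16-array fit. The value belongs to 3 probe sets with identical values, and since another of them is annotated to a gene model, its identity is uncertain.

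Of the 4 named genes on the lists of histone chaperones, DNA repair and splicing, 3 were higher and 1 was lower. Dnajc9, a co-chaperone of histones, measured 8.57, 8.63, 8.77, 8.43 and 8.13 after infarction and 7.84, 7.52 and 7.40 after sham operation. Nsmce2, a SUMO ligase of a DNA repair complex, measured 8.77, 8.68, 8.81, 8.43 and 8.77 against 7.63, 8.25 and 7.74. Both genes separated the groups, with infarction array 5 the lowest of its group for Dnajc9 but not for Nsmce2. The differences were 0.92 ± 0.18 for Dnajc9 and 0.82 ± 0.17 for Nsmce2 (log2, SE), with limma adjusted p of 0.216 and 0.253 in the 8-array fit and 0.00928 and 0.0396 in the 16-array fit.

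Snrpd3, a core protein of the spliceosomal particles, measured 11.06, 10.70, 10.86, 10.25 and 10.70 after infarction and 9.65, 9.62 and 9.94 after sham operation. Its groups did not overlap, and the difference was 0.98 ± 0.19 (log2, SE, 1.97-fold). Cwc15, another spliceosome protein, measured 9.41, 10.06, 9.81, 9.35 and 9.35 against 10.54, 10.60 and 10.22. It was lower on every infarction array, by -0.86 ± 0.20 (log2, SE), so the 2 named members of the 34-gene splicing list stood on opposite sides. Taf1d, a subunit of the factor that starts ribosomal RNA transcription, measured 6.56, 7.74, 7.91, 7.16 and 6.34 after infarction against 5.65, 6.03 and 5.21. Its difference was 1.51 ± 0.39 (log2, SE) with no overlap, and it was the named protein-coding gene with the largest positive difference. In the 16-array fit Snrpd3 and Cwc15 passed, with limma adjusted p of 0.0156 and 0.0246, and Taf1d did not (0.0973).

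Small noncoding RNAs differed in both directions. Snord49a, which guides methylation of ribosomal RNA, measured 6.73, 5.98, 6.07, 5.55 and 5.39 after infarction and 4.72, 5.23 and 4.22 after sham operation, a difference of 1.22 ± 0.33 (log2, SE) without overlap. Its sham mean of 4.72 also lay under the filter level. The list of small nucleolar, Cajal body and ribosomal 5S genes had 8 tested members. Of these 2 were higher and 6 lower, 4 of the 6 being ribosomal 5S genes, and Snord49a alone had an unadjusted p under 0.05 (limma, 0.00602). That follows from selection, as Snord49a is from the authors' ENDO table, where all 82 tested probe sets had such a p. The other 7, Snord98 among them, are from the authors' TCRM table only. Of the tested genes of that kind 66.5% were higher, against 50.3% of all tested probe sets, and 9.68% had an unadjusted p under 0.05. Snord98 measured 6.73, 6.19, 6.53, 6.09 and 3.60 after infarction against 4.97, 5.96 and 4.16. Its infarction array 5 was the lowest of all 8 arrays. The difference was 0.80 ± 0.72 with that array and 1.35 ± 0.39 without it (log2, SE).

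Few genes of signalling, the cytoskeleton and lipid synthesis could be named. Ppp1ca, a catalytic subunit of protein phosphatase 1, measured 10.31, 9.87, 9.90, 9.56 and 9.49 after infarction against 8.82, 9.19 and 7.87. Ebp, a sterol isomerase of cholesterol synthesis, measured 9.50, 8.83, 8.84, 8.49 and 8.80 against 7.71, 8.05 and 7.57. Arpc5l, a subunit of the complex that branches actin filaments, measured 9.20, 9.31, 9.30, 8.55 and 8.70 against 7.93, 8.40 and 7.49. All 3 separated the groups, with differences of 1.20 ± 0.31, 1.11 ± 0.23 and 1.07 ± 0.26 (log2, SE). Their limma adjusted p were 0.339, 0.253 and 0.328 in the 8-array fit and 0.0279, 0.0222 and 0.0283 in the 16-array fit. Ebp was the only named gene of 22 in sterol synthesis, and the others were not analysed here. Arpc5l shares its 28-gene actin and cytoskeleton list with Dcdc2b, the other named member, which was lower.

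Sh3glb2, which bends membranes, and Cyp4f13, of the cytochrome family that hydroxylates fatty acids, were higher with overlapping groups. Their differences were 1.01 ± 0.30 and 0.78 ± 0.24 (log2, SE). For Sh3glb2 the overlap came from infarction array 5 at 6.83 against sham array 2 at 6.95. For Cyp4f13 it came from infarction arrays 2 and 4 at 6.51 and 6.56 against sham array 2 at 6.60.

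Dcdc2b had the largest negative difference of the genes named here. This gene, with a doublecortin domain of the kind that binds microtubules, measured 6.98, 8.78, 8.30, 8.25 and 7.24 after infarction against 10.60, 10.50 and 9.77. Vps50, part of a complex that tethers endosomal vesicles, measured 6.17, 6.63, 6.65, 6.22 and 5.59 against 8.16, 7.83 and 7.05. Both were lower on every infarction array, by -2.38 ± 0.43 and -1.43 ± 0.31 (log2, SE). The limma adjusted p were 0.192 and 0.27 in the 8-array fit and 0.00615 and 0.0145 in the 16-array fit. Without infarction array 5 the differences were -2.21 and -1.26.

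Trim34a, of the tripartite motif family that interferon induces, measured 9.05, 10.82, 10.88, 10.68 and 9.41 after infarction against 11.93, 11.84 and 11.98. The sham arrays were almost level, while infarction arrays 1 and 5 lay more than 1 unit below the other 3. The difference was -1.75 ± 0.45 (log2, SE), and the gene has close paralogs that probes may not separate. It was the only named gene of the 28-gene interferon list, so the other members were not analysed here. Recql5os1, a transcript from the strand opposite Recql5, measured 4.07, 4.40, 4.92, 5.01 and 4.96 against 6.81, 5.28 and 6.45, a difference of -1.51 ± 0.37. The infarction mean of 4.67 was under the filter level, and whether the labelling kept strand is not stated in the sources used here. In the 16-array fit the limma adjusted p were 0.0459 for Trim34a and 0.0453 for Recql5os1.

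Transcripts with the symbols of mitochondrial genes were lower in mean. The transfer RNA genes mt-Tq and mt-Tr carry glutamine and arginine, and ND4L is a subunit of respiratory complex I. The list of mitochondrially encoded genes holds mt-Tq and mt-Tr only. Whether the probe set of ND4L reads the mitochondrial genome was not tested. mt-Tq measured 4.38, 5.88, 5.92, 5.69 and 5.50 after infarction against 6.42, 7.38 and 7.92. mt-Tr measured 7.64, 9.44, 8.31, 8.34 and 7.71 against 9.94, 8.93 and 10.85. ND4L measured 8.32, 9.52, 9.02, 8.88 and 7.78 against 10.08, 9.63 and 10.49. The groups were apart for mt-Tq and ND4L and overlapped for mt-Tr, where infarction array 2 exceeded sham array 2. The differences were -1.77 ± 0.43, -1.62 ± 0.51 and -1.36 ± 0.38 (log2, SE), and none passed in limma's 16-array fit (adjusted p of 0.0537, 0.24 and 0.0876). In TCRM cells the differences were -0.09 ± 0.41 for mt-Tq, -1.19 ± 0.57 for mt-Tr and -0.78 ± 0.35 for ND4L (log2, SE). The difference in response between ENDO and TCRM cells passed for none (limma adjusted p of 0.355, 0.949 and 0.845). Other mitochondrial transcripts were not analysed here.

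Of the olfactory and vomeronasal receptor genes, which serve smell and pheromone sensing, 6 could be named and 2 were tested. Olfr99 measured 4.78, 7.71, 7.46, 7.14 and 6.43 after infarction against 9.14, 8.26 and 8.42, a difference of -1.90 ± 0.63 (log2, SE). Its infarction arrays spanned almost 3 units. Olfr15 and Olfr916, named for their size in the authors' table, had means of 4.28 and 3.46 after infarction and 5.12 and 4.65 after sham operation. They were left out by the filter.

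**Figure D3:**
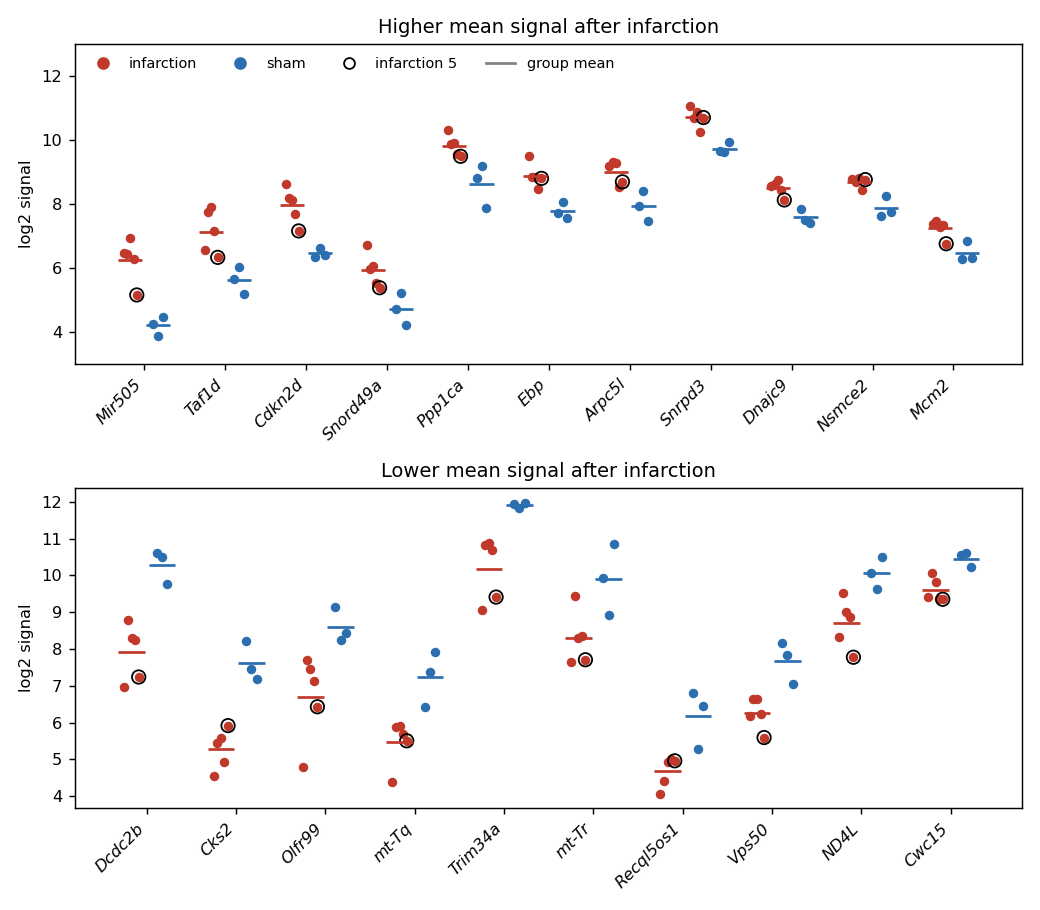
Log2 signal (vertical axis) of 21 named genes on each infarction (red) and sham (blue) array, with group means as lines and infarction array 5 circled. Upper panel, genes with a higher mean after infarction, lower panel, genes with a lower mean. The authors chose these genes on these arrays for a difference of this kind, and the groups overlap for Mcm2 and mt-Tr.

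The authors' ENDO table left 167 of its 274 probe sets without a symbol, and 11 had several. The RefSeq counts that follow cover those with 1 symbol, genes named above included. Of the 95 distinct symbols 23 were protein-coding in RefSeq, 11 higher and 12 lower, while 41 symbols were not found there, 3 higher and 38 lower. Small nuclear RNAs accounted for 9, with 4 higher, and small nucleolar RNAs for 5, with 2 higher. The 5 tested antigen receptor segments ran from -1.20 to 1.54 (log2), with 3 higher and 2 lower. Within this table, chosen on these same arrays, lower symbols outnumbered higher ones mainly among those that RefSeq does not list. Its protein-coding genes were split almost evenly. The shares by class over all tested probe sets are not known, since most have no symbol, so these counts describe the selection only.

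**Figure D4:**
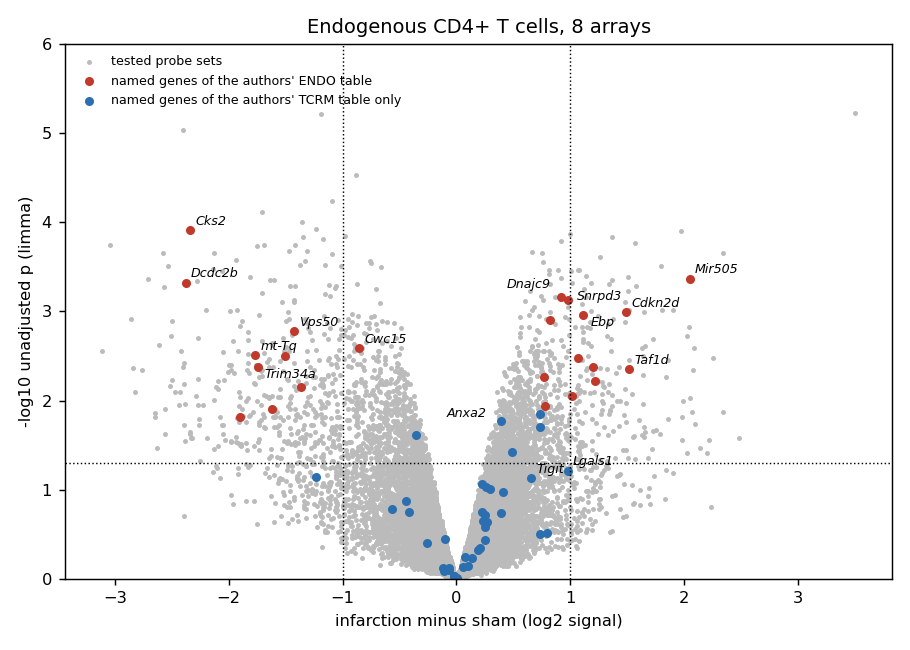
Each grey point is a tested probe set, with its infarction minus sham difference (log2, horizontal) and the -log10 of its unadjusted limma p (vertical); red and blue points are named genes of the authors' ENDO table and of their TCRM table only. Dotted lines mark 2-fold and the unadjusted threshold. The red genes lie beyond that threshold by selection, and most blue genes lie near 0, with Lgals1 at 0.98.

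The second set of named genes comes from the authors' deposited table of TCRM cells and was chosen on the other 8 arrays. Per the series design those cells came from the same animals, so the sets are not independent in animals. The TCRM table was made without ENDO arrays, but 1 gene model that is also in the ENDO table, at -1.55 in ENDO and -1.62 in TCRM cells (log2), was counted in the first set and not here. Of the other 174 genes 155 were tested in ENDO cells. After infarction 103 had a higher mean (66.5%, against 50.3% of all tested probe sets) and 52 a lower one, with a median difference of 0.11. Differences ran from -1.39 to 0.98. At an unadjusted p under 0.05 limma had 12 higher (7.74%, against 3.94%) and 3 lower (1.94%, against 4.03%). The groups did not overlap, with infarction above sham, for 13 (8.39%, against 2.96%) and with infarction below for 3 (1.94%, against 3.74%). Without infarction array 5, 111 were higher (71.6%, against 47.1%), 20 had an unadjusted p under 0.05 and the median was 0.17. In TCRM cells the median of these genes was 1.23. Of the 133 tested genes that were higher in TCRM cells 98 (73.7%) were higher in ENDO cells, with a median of 0.17. Of the 22 that were lower there 5 (22.7%) were higher in ENDO cells, with a median of -0.15.

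The tested follicular helper genes, which mark CD4+ T cells that help B cells in germinal centres, were higher in mean by small differences. Of 22 genes 8 could be named and 7 were tested. All 7 were higher, 0 had an unadjusted p under 0.05 with limma, and the median was 0.25. All 7 belong to the TCRM-chosen set, of which 66.5% were higher, against 50.3% of all tested probe sets. Among its members that were higher in TCRM cells the share was 73.7%. Tigit, an inhibitory receptor, measured 7.19, 5.92, 6.76, 6.06 and 6.11 after infarction against 5.80, 5.36 and 6.11. Infarction arrays 1 and 3 stood above the other 6 arrays, which overlapped. The difference was 0.66 ± 0.32 (log2, SE), with a limma adjusted p of 0.678. Pdcd1, the inhibitory receptor PD-1, differed by 0.41 ± 0.23, Il4, a helper cytokine, by 0.25 ± 0.26 and Maf, a transcription factor of helper cells, by 0.19 ± 0.26 (log2, SE). Il21, the helper cytokine, was left out by the filter on low signal.

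Among effector, memory and helper genes 10 of 36 were tested, 7 were higher and 1 had an unadjusted p under 0.05, with a median of 0.23. These counts are near the shares of the whole TCRM-chosen set, 66.5% higher and 9.68% with an unadjusted p under 0.05. Lgals1, a galectin of activated T cells, measured 11.42, 10.11, 10.46, 9.81 and 9.04 after infarction against 9.19, 9.10 and 9.28. Infarction arrays 1 to 4 exceeded each sham array, and array 5 was the lowest of all 8. The difference was 0.98 ± 0.45 (log2, SE, limma unadjusted p of 0.0615) with all arrays and 1.26 ± 0.35 (p of 0.00775) without infarction array 5. Anxa2, a calcium-dependent membrane-binding protein, measured 6.82, 6.66, 6.76, 6.53 and 6.50 against 6.40, 6.27 and 6.13. It separated the groups with a small difference, 0.39 ± 0.13, and a limma adjusted p of 0.473. Cxcr3, a chemokine receptor of T helper 1 cells, differed by 0.25 ± 0.18 and Csf1, the macrophage growth factor, by 0.26 ± 0.20, both with overlapping groups.

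Receptors and ectoenzymes of activated cells were split. Cd38, whose product cleaves extracellular NAD, measured 6.99, 6.06, 6.46, 6.10 and 5.82 after infarction against 5.41, 5.62 and 5.64. Il1r2, a decoy receptor that binds interleukin 1 without signalling, measured 5.89, 5.04, 5.64, 5.08 and 5.72 against 4.65, 4.53 and 5.03. All infarction arrays exceeded all sham arrays for both, though for Il1r2 the nearest arrays were 5.04 and 5.03. The sham mean of Il1r2, 4.74, was under the filter level of 4.88, so the size of its difference is uncertain. The differences were 0.73 ± 0.25 and 0.74 ± 0.24 (log2, SE), with limma adjusted p of 0.497 and 0.451. Of the 5 tested inhibitory receptors and ectoenzymes 3 were higher, with a median of 0.41, which as a count is near the 50.3% of all tested probe sets and the 66.5% of the TCRM-chosen set. Nt5e, the ectoenzyme CD73, differed by -0.06 ± 0.23 and, without infarction array 5, by 0.06 ± 0.20. Of 4 tested regulatory T cell genes 3 were higher, again near that 66.5%, and 0 had an unadjusted p under 0.05 with limma. Dhrs3, a retinal reductase, measured 6.41, 6.10, 6.46, 6.30 and 6.27 against 6.60, 6.58 and 6.80, lower on every infarction array by -0.35 ± 0.13 (log2, SE).

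The remaining lists had few named members and small differences. Both named genes of naive T cells and lymph node homing, Enpp4 and Amigo2, differed by -0.02 ± 0.26 and -0.06 ± 0.21 (log2, SE), and by 0.17 ± 0.15 and 0.06 ± 0.16 without infarction array 5. Egln3, an oxygen-sensing hydroxylase, differed by 0.14 ± 0.24. Of 3 tested histone genes 2 were higher and 0 had an unadjusted p under 0.05 with limma.

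Markers of other cells were named for few genes. Nkg7, of the 13 CD8 T and NK cell markers, measured 8.32, 7.50, 7.66, 7.66 and 7.54 after infarction against 7.27, 7.33 and 7.14, and infarction array 1 was the highest of all. The difference was 0.49 ± 0.20 (log2, SE) with no overlap, while Ccl5, the other named marker of that list, differed by 0.06 ± 0.17 with overlap. Cd22, of 15 B cell markers, differed by 0.23 ± 0.12 at log2 5.75 to 5.89 after infarction against 5.42 to 5.73. Prdm1, of 9 plasma cell markers, differed by 0.26 ± 0.14, and infarction array 1 at 6.62 was again the highest. Stfa3, of 20 myeloid markers, differed by 0.25 ± 0.21 and Timp2, of 18 stromal and heart markers, by 0.08 ± 0.13, both with overlap. All of these named markers belong to the TCRM-chosen set and were higher after infarction in TCRM cells. Of the tested genes of that kind 73.7% were higher in ENDO cells, against 50.3% of all tested probe sets. Prdm1 is also on the regulatory T cell list. The remaining markers were not analysed here. Infarction array 1 was the highest array for Lgals1, Cd38, Tigit, Il1r2, Anxa2, Nkg7 and Prdm1. It was not extreme for such genes alone. Among others, it was also the highest for Cdkn2d, Snord49a, Ppp1ca, Ebp and Snrpd3, and the lowest for Cks2, Dcdc2b, Trim34a, Olfr99 and mt-Tq. Its interquartile range, 2.46, was the widest of the 8 arrays. The part of other cells in these differences was not tested, and in sorted bulk samples more cells of a type and more RNA per cell cannot be told apart.

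The difference between ENDO and TCRM cells in their response was tested as an interaction in the 16-array fit, with differences taken within each population. At an adjusted p under 0.05 limma called 46 probe sets (0.159%), 5 with the higher response in ENDO cells and 41 with the lower, and 2530 had an unadjusted p under 0.05. Of the 46, 27 had 1 symbol, 21 of them from the set chosen on TCRM arrays for a large difference there. Tigit differed by 0.66 in ENDO and 3.10 in TCRM cells, an interaction of -2.45 ± 0.40 (log2, SE, adjusted p of 0.0283). For Csf1 the interaction was -2.01 ± 0.36, for Maf -1.83 ± 0.33, for Nt5e -1.99 ± 0.34 and for Tgfb3, a transforming growth factor, -1.82 ± 0.31 (log2, SE). Their limma adjusted p lay between 0.0329 and 0.0395. Lgals1 differed by 0.98 in ENDO and 1.03 in TCRM cells, with an interaction of -0.05 ± 0.57, an error too wide to show likeness.

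Of the genes chosen on ENDO arrays, Cks2 alone among those named passed this test, at -2.34 in ENDO and 0.94 in TCRM cells (interaction -3.28 ± 0.53, limma adjusted p of 0.0283). Cdkn2d differed by 1.49 in ENDO and 0.11 in TCRM cells, and its interaction of 1.38 ± 0.34 (log2, SE) had a limma adjusted p of 0.168. Snrpd3 differed by 0.98 and -0.27, with an interaction of 1.25 ± 0.24 and an adjusted p of 0.0575. Mir505 differed by 2.05 and -0.76, with an interaction of 2.81 ± 0.72 and an adjusted p of 0.194. The count of 46 was 78 without ENDO infarction array 5 and 2 without ENDO sham array 1. As both populations came from the same animals, arrays of 1 operation and number may share an animal, and with operation and number as a random block it was 54 (7 higher, 47 lower). With the number alone as a replicate block it was 18. The split of 5 higher and 41 lower went to 27 and 48 after quantile normalization of the 16 arrays and to 119 and 147 with array weights.

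**Figure D5:**
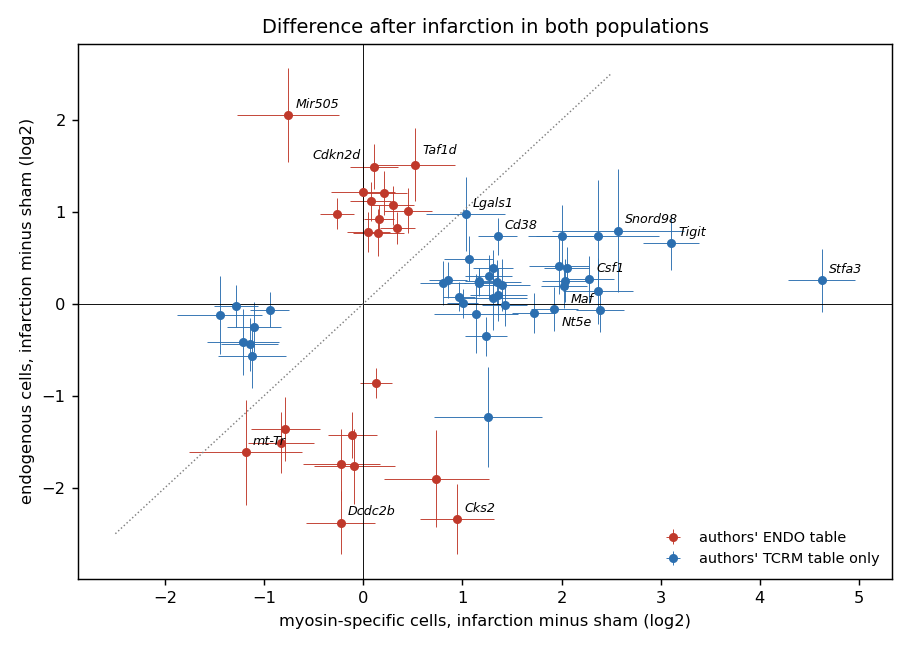
Infarction minus sham difference (log2) of each tested named gene in TCRM cells (horizontal) and ENDO cells (vertical), with bars of 1 SE from the 16-array fit and a dotted line of equal differences. Red genes come from the authors' ENDO table and blue genes from their TCRM table only, so each set is far from 0 on its own axis by selection. Lgals1 (0.98 and 1.03) lies near the dotted line, and Tigit (0.66 in ENDO, 3.10 in TCRM cells) far from it.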

How the data were processed

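Per the labels' protocols, RNA of the sorted cells was pre-amplified, labelled and run on whole transcript arrays of Affymetrix. The deposited value table holds log2 signal per probe set, as the authors made it. The submitters' processing notes name Affymetrix Expression Console and Transcriptome Analysis Console. Their versions, the array build and the way probes were summarised are not given in the sources consulted. The values were used as deposited. In the authors' tables decimal commas were read as points, and directions were taken from the averages, because 4 fold cells of the ENDO table contradicted them. Signal over background is not known, and precision is limited by how few arrays there are.

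The filter removed 12404 of 41345 probe sets, those below percentile 30 of the mean over the 8 ENDO arrays. Group means were fitted in R 4.3.3 by lmFit and eBayes of limma 3.58.1, with 2-sided p-values adjusted by the Benjamini-Hochberg method at 0.05. The interaction and the 16-array fit used 4 group means and the same probe sets. The 8-array fit and the interaction were run on simulated data with independent normal noise for each probe set. Those data held no outlying array and no shared animals, so they cannot show how the fits handle either. The series design gives 5 infarcted and 3 sham animals, and that each array is 1 animal is not stated, so p-values measure the spread between arrays, which may be technical.

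The tables hold 269 distinct symbols. Of these, 207 were RefSeq symbols, 10 were found only as synonyms and 52 were not found. Probe sets with several symbols were not named. Genes were named by a rule: up to 10 per direction past an adjusted p of 0.05 with all arrays or without infarction array 5, the 15 highest and 15 lowest differences with an unadjusted p under 0.05, those past 0.05 in the 16-array fit, up to 6 per gene list by lowest p, and the 10 largest per direction in the authors' ENDO table. Gene models, clones and receptor segments were counted only. The comparison, lists and rule were chosen with earlier results of these data known. Lists with no named member were proteasome, mitochondrial respiration, ribosomal protein, heat shock and erythroid genes. Alternatives were the filter, scaling, array weights, prior, thresholds, identical probe sets counted once, source name groups, a replicate block, the spread of 16 arrays and each array left out. Plots were made in python 3.11.15 using matplotlib 3.10.9.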

Additional observations from a re-analysis of the deposited data

Results flagged for a closer look

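Of 63 named genes, 6 had a lone infarction array far outside the range of the remaining 4, which happens by chance in about 1 of 20 genes. The gap to the nearest array divided by the range was 0.732 for mt-Tq, 0.844 for Prdm1 and 0.808 for Nkg7 on infarction array 1. It was 0.794 for Snord98, 0.741 for Mcm2 and 0.711 for Tnfsf8, a member of the tumour necrosis factor family, on infarction array 5. Prdm1 and Nkg7 were high on array 1 and mt-Tq was low there, and the 3 others were low on array 5.

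The interaction test called 8 named genes, at a limma adjusted p under 0.05, for a difference between ENDO and TCRM cells in the response to infarction. The ENDO minus TCRM difference of responses on the log2 scale was -4.37 for Stfa3, -3.28 for Cks2, -2.46 for Art2a-ps, -2.45 for Tigit, -2.01 for Csf1, -1.99 for Nt5e, -1.83 for Maf and -1.82 for Tgfb3. Stfa3 and Art2a-ps have close paralogs, and Cks2 shares its values with 2 other probe sets, so the identity of these 3 is uncertain. The authors' deposited table gives TCRM sham averages of 4.13 for Stfa3 and 4.76 for Tgfb3, under the filter level of 4.88, so the size of those differences is uncertain too. All but Cks2 were chosen by the authors for a difference on the TCRM arrays, and Cks2 for one on the ENDO arrays. Each was thus selected on arrays that enter this test. The 46 probe sets called were 2 without ENDO sham array 1 and 0 with source name groups. The source name groups count infarction array 5 of both populations as sham, so the TCRM differences move with them too.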

How the results depend on the processing

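With limma, 0 probe sets passed in the 8 arrays under each filter, scaling, prior, source name and replicate block setting and with each array left out. Exceptions were array weights (157, 107 of them among the 300), all 16 arrays with a shared spread (300) or a weight per population (72), and an adjusted p of 0.10 (3). Of 63 named genes 0 passed, and 11, 13 and 4 did with array weights, 16 arrays and the population weight. The count of 607 past 2-fold was 954 with the replicate block and 1327 at 1.5-fold, and 499 to 769 with an array left out. Its split turned to 394 higher and 375 lower without infarction array 5, 480 and 102 with source name groups and 537 and 417 with the block, and was 375 and 381 with array weights.

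The 46 differences of response became 75 with quantile normalization, 28 with median centring, 266 with array weights, 18 with the block and 0 with source name groups (2983 at an unadjusted p under 0.05). The last setting counts infarction array 5 as sham in both populations. Without TCRM infarction arrays 1, 2, 4 and 5 they were 21, 9, 21 and 30, and without TCRM sham arrays 2 and 3 they were 18 and 29. Without ENDO infarction arrays 3 and 5 they were 29 and 78, and without ENDO sham arrays 1 and 3 they were 2 and 19. The cause of these moves was not tested. Deviations of ENDO infarction and sham arrays with the same number, 1 to 3, correlated at -0.02, -0.33 and -0.07. A shared number thus came with no positive correlation between operations. These values compare ENDO arrays only, so they cannot tell whether a number marks the same animal in ENDO and TCRM arrays.

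Of 1187 alternative values of named genes, 1117 kept direction and call, 28 newly passed and 42 turned, in 14 genes with small differences. With array weights the log2 difference was -0.032 for Il4, 0.13 for Enpp4, 0.0095 for Art2a-ps, 0.23 for Olfr1454 and 0.011 for Trat1. With quantile normalization it was -0.053 for S100a11-ps and 0.013 for Zfp69, and with median centring 0.017 for Zfp69 and 0.0096 for Enpp4. With source name groups it was 0.37 for Enpp4, 0.19 for Nt5e, 0.20 for Amigo2, 0.15 for Art2a-ps, 0.48 for Hist1h2an and 0.24 for Trat1. With the block it was 0.20 for Zfp69, 0.17 for Enpp4, 0.12 for Nt5e, 0.15 for Amigo2 and Art2a-ps, 0.30 for Hist1h2an and 0.046 for Trat1. With an array left out it ranged from -0.021 to 0.41 for Stfa3, -0.0030 to 0.26 for Egln3, -0.040 to 0.29 for Nrp1, -0.13 to 0.22 for Ccl5 and -0.079 to 0.073 for S100a11-ps. It ranged from -0.10 to 0.15 for Zfp69, -0.12 to 0.17 for Enpp4, -0.17 to 0.068 for Nt5e, -0.17 to 0.058 for Amigo2, -0.20 to 0.035 for Art2a-ps, -0.41 to 0.17 for Hist1h2an and -0.30 to 0.18 for Olfr1454.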
